A study of Mus musculus with 47 samples.

Results

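HOX genes encode homeodomain transcription factors that lie in 4 clusters and set the identity of body segments and of blood progenitors. Alone they bind DNA with little selectivity, and they gain it by pairing with TALE homeodomain cofactors: PBX proteins bind DNA beside the HOX protein, while MEIS proteins bind PBX and keep it in the nucleus. In blood, *Hoxa5* to *Hoxa10* and *Meis1* are active in stem cells and early progenitors and fall silent as T cells mature in the thymus, and a subgroup of human T-cell leukaemias keeps the HOXA genes on. The group described here is *Hoxa5*, *Hoxa7*, *Hoxa9*, *Hoxa10*, *Hoxc4*, *Pbx3* and *Meis1*. It was set by gene symbol, with earlier results of these data known. These 7 genes of the 12393 on the platform are read by 8 of the 20380 probe sets with 1 symbol, since *Hoxa9* has a pair of them.

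The samples were 47 mouse T-cell lymphoblastic tumours, each hybridized to 1 Affymetrix array and given 1 MAS5 signal, a brightness in arbitrary units, per probe set. The titles name 14 genetic backgrounds. Knockouts were *Cdkn2a* knockout with retroviral insertional mutagenesis (9 tumours), p53 knockout (3), E2A knockout (2) and rag E2A knockout (2). Single transgenics were TLX1 (6), LMO1 (3), ThPOK (3), beta-catenin (3), Nup98HoxD13 (3), Pokemon (2) and Tal1 (2). The double transgenics were olig1-LMO1 and Tal1-LMO2 (3 each), and Ikaros Plastic had 3 tumours. The labels mark the 6 TLX1 transgenic tumours as TLX1 positive and the other 41 as negative. Strain, age, the promoters that drive the transgenes and normal thymus as a control are not given in the labels, and every comparison is therefore between tumours. Whether each tumour came from a mouse of its own is not stated, so p-values measure the spread between these samples and no more.

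Labels of some libraries went against their *Lmo1* signals. *Lmo1* read 522 to 2344 in LMO1 transgenic tumours, 11.1 to 34.3 in the 3 tumours labelled olig1-LMO1, 586 to 2526 in the 3 labelled Nup98HoxD13, and 1.52 to 249 in the other 38. *Olig1* read 1.56 to 6.11 in the tumours labelled olig1-LMO1 and at most 24.3 in any background, and *Hoxd13* was under the array median in all 47 arrays. The probe sets of *Olig1* and *Hoxd13* thus separated no background and decide nothing about a label. Because of *Lmo1*, the 6 tumours labelled olig1-LMO1 or Nup98HoxD13 are called by their labels only. Tumour 2 of the p53 knockout had 2 of 10 T cell markers over its array median, where the 42 tumours without a raised member (defined below) had 8 to 10, so its values are given separately. Array medians ran from 49.6 to 106, and a signal under the median of its own array was counted as absent.

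The bases before the start of transcription are shown for *Hoxa5*, *Hoxa7* and *Hoxc4*, the HOX members that were over the array median in both of the tumours that carried most of the group. The sequences are from RefSeq (GRCm38.p6), 250 bases each, 5′ to 3′ on the gene's strand, with CpG dinucleotides in capitals.
*Hoxa5*, chr6:52204588-52204837, minus strand: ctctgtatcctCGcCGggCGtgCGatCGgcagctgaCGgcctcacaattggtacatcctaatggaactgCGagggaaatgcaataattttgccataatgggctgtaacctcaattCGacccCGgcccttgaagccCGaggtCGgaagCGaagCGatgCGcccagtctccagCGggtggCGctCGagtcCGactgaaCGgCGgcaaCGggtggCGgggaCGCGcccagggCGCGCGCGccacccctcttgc
*Hoxa7*, chr6:52218574-52218823, minus strand: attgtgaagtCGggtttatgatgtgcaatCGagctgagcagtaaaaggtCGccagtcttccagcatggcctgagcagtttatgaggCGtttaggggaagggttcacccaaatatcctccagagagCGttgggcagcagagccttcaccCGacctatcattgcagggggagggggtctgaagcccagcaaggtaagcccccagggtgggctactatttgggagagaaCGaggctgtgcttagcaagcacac
*Hoxc4*, chr15:103034145-103034394, plus strand: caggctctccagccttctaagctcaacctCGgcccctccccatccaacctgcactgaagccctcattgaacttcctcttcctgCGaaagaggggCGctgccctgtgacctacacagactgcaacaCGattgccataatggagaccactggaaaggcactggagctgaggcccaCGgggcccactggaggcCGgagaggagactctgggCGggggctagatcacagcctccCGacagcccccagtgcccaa
The *Hoxa5* window holds 28 CpG, a number reached by 7.61% of the 32851 RefSeq promoter windows of this length, whose median is 6. The *Hoxa7* window holds 7 and the *Hoxc4* window 8, reached by 46.3% and 43% of windows. The windows were searched on both strands for TGATTNAT, letters of the joint PBX and HOX site, and for TGACAG, letters of the MEIS site. Both begin with TGA and no other motif was searched. Neither was found in the 7 windows listed for 6 of the members, against 2.82% and 15.9% of all windows, which says only that these letters are not in these windows.

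Most tumours lacked the group, and a few carried several members at once. Of 329 member-by-tumour pairs, 34 were over the array median, or 10.3%, against 54.2% of gene-by-tumour pairs over the whole platform. *Pbx3* made up 20 of the 34 pairs. No member was over the median in 25 tumours, 1 member in 17, 2 in 2, 3 in 1, 4 in 1 and 6 in 1. Of the 5 HOX members, 41 tumours had none over the median, 3 had 1, and 3 had 2 or more. Among all genes, 53.5% and 52.9% were over the median in tumours 2 and 3 labelled olig1-LMO1, which had 6 and 4 members over it. The share was 52.8% in Pokemon tumour 1, with 3 members, 54.8% in Ikaros Plastic tumour 2, with 2, and 57.4% in p53 knockout tumour 2, with 1. The members closest to the threshold were *Hoxa9* in ThPOK tumour 2, at 77.2 against a median of 76.3, and *Pbx3* in tumour 1 labelled Nup98HoxD13, at 67.4 against 70.2.

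**Figure D1:**
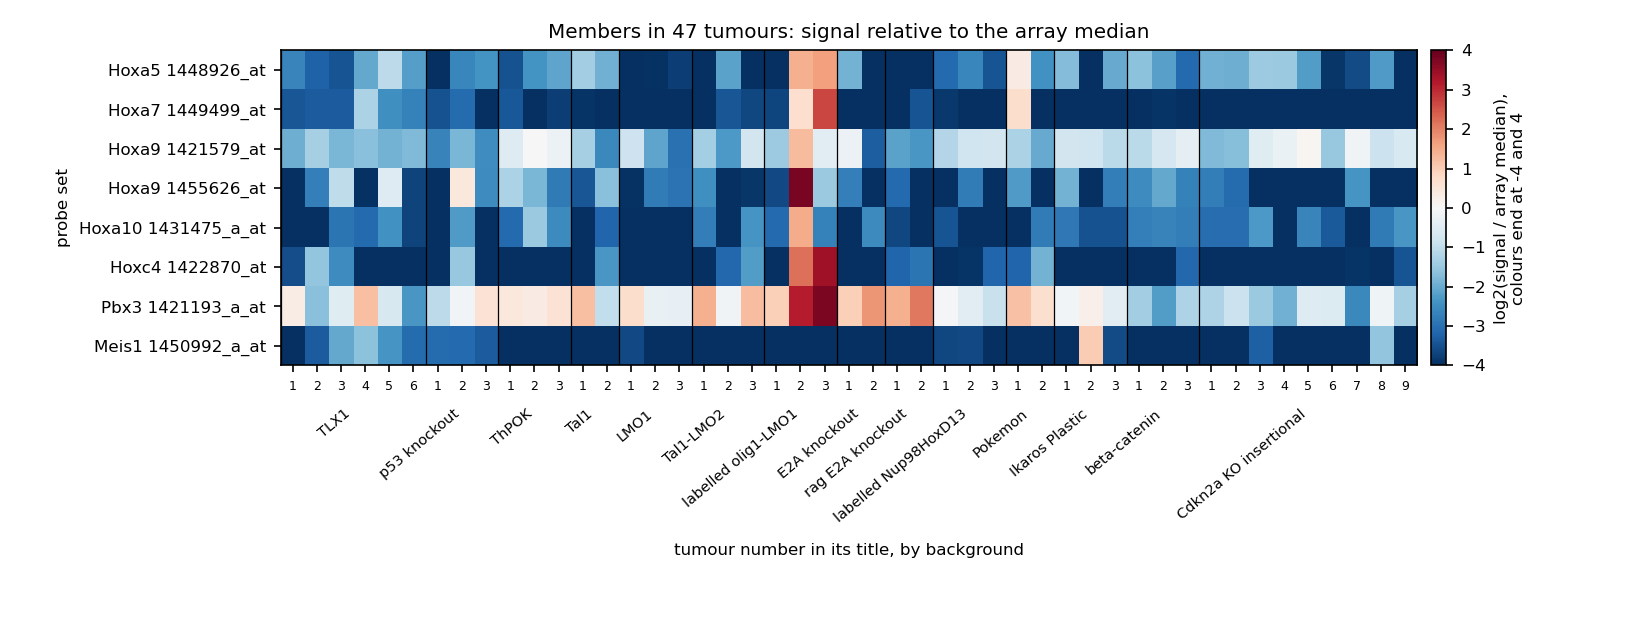
Signal of each member probe set (rows) in each of the 47 tumours (columns, by background), as log2 of the signal over that array's median; red is over the median and blue under it. Tumours 2 and 3 labelled olig1-LMO1 carry 6 and 4 members over the median, Pokemon tumour 1 carries 3, and *Pbx3* is the member over the median in most other places.

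A member was called raised in a tumour where it was over the array median and at least 4 times the median of its own probe set over the 47 arrays, a rule chosen after the values were seen. By it 42 tumours had no raised member. Tumour 2 labelled olig1-LMO1 had 6 of 7 raised (*Hoxa5*, *Hoxa7*, *Hoxa9*, *Hoxa10*, *Hoxc4* and *Pbx3*), where 0.646% of all genes were raised in that array. Tumour 3 with the same label had 4 (*Hoxa5*, *Hoxa7*, *Hoxc4* and *Pbx3*), against 0.791% of all genes. Pokemon tumour 1 had *Hoxa5* and *Hoxa7* (0.533% of genes), Ikaros Plastic tumour 2 had *Meis1* (6.71%) and p53 knockout tumour 2 had *Hoxa9* (10.2%). Tumour 1 labelled olig1-LMO1 had none. Of the 26 other HOX genes on the platform, 1 was raised in tumour 2 with that label and 4 in tumour 3. Because the members were chosen with earlier results known, these counts describe the arrays and support nothing further.

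*Hoxa5* read 1.70, 185 and 208 across tumours 1, 2 and 3 with the olig1-LMO1 label. It encodes a homeodomain factor known from lung and blood progenitor development. It reached 83.5 in Pokemon tumour 1, just over that array's median of 67.1, and was under the array median in the other 44 tumours. Over the 45 tumours other than tumours 2 and 3 labelled olig1-LMO1 its lowest, median and highest signals were 1.37, 12.6 and 83.5, so the high pair stood 2.22 and 2.49 times above the highest of the rest. The RefSeq models of *Hoxa3* and of the long noncoding *Hoxaas3* overlap that of *Hoxa5*, and *Hoxa3* was under the array median in all 47 arrays.

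*Hoxa7*, which lies on the *Hoxa9* side of *Hoxa5* in the cluster, read 4.67, 109 and 428 in the same 3 tumours and 109 in Pokemon tumour 1. These were the 3 arrays in which it passed the median, and tumour 3 labelled olig1-LMO1 was 3.94 times above the next. Tumour 2 and Pokemon tumour 1 stood at a ratio of 0.999. In the 45 tumours the median was 4.16, and the highest after Pokemon tumour 1 was 29.2. Pokemon tumour 2 had neither gene over its median.

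*Hoxa9*, the HOXA gene best known in acute leukaemia, was measured by a pair of probe sets that differed. The probe set with the higher mean over the arrays (1421579_at) read 22.0, 166 and 50.6 across those 3 tumours, and its lowest, median and highest in the 45 tumours were 5.89, 27.3 and 79.6. The other (1455626_at) read 4.90, 954 and 24.0, with 0.419, 8.25 and 118 in the 45. Both put tumour 2 highest of all, at 2.08 and 8.12 times the next, and both put tumour 3 under its array median. They split elsewhere: 1421579_at was just over the median in ThPOK tumour 2 and in *Cdkn2a* knockout tumour 5 (79.6 against 74.9), and 1455626_at in p53 knockout tumour 2 (118 against 88.2). Over the 47 arrays their log2 values correlated at r = 0.40, and at r = 0.08 over the 45.

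*Hoxa10*, the next gene of the cluster, passed the median in 1 array. It read 6.88, 194 and 10.2 in the tumours labelled olig1-LMO1, and its highest among the 45 was 27.4, in ThPOK tumour 2, so tumour 2 was 7.07 times above it. Of all genes on the platform 5.39% were over the median in exactly 1 tumour. *Hoxa10* and *Meis1* did not reach the filter of 2 arrays and were not tested.

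*Hoxc4*, the gene at the *Hoxc5* end of the HOXC cluster and a HOX gene known from lymphoid cells, had signals of 1.95, 315 and 710 across tumours 1, 2 and 3 with the olig1-LMO1 label. In the other 45 tumours it ran from 1.59 to 30.7 with a median of 3.47, and never passed an array median. The high pair stood 10.3 and 23.2 times above the highest of the rest, the widest gap of any member in both tumours.

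Some of the other HOX genes over the median in these tumours lay in stretches of neighbours, and others did not. Of 26 others on the platform, tumour 2 labelled olig1-LMO1 had *Hoxa11* (137) and *Hoxc6* (189) over the median, so that all measured genes from *Hoxa5* to *Hoxa11* were over it, while *Hoxa2*, *Hoxa3*, *Hoxa4* and *Hoxa13* read 12.8 to 35.8 and were not. Tumour 3 had *Hoxc5* (192), *Hoxc6* (536), *Hoxc8* (472) and *Hoxd8* (571) over the median. Under it were *Hoxc9* at 44.4, *Hoxa11* at 22.4 and *Hoxd9*, next to *Hoxd8*, at 5.42. The measured stretch from *Hoxc4* to *Hoxc8* was thus over the median in tumour 3, and in tumour 2 the same stretch lacked *Hoxc5* (16.1) and *Hoxc8* (26.1). Tumour 1 had none of the 26. *Hoxa6*, between *Hoxa5* and *Hoxa7*, is not on the platform under a symbol of its own.

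Outside that label, other HOX genes passed the median in some tumours. In p53 knockout tumour 2, 9 of the 26 were over it, among them *Hoxb2* (254), *Hoxb3* (123), *Hoxb5* (167), *Hoxb6* (200), *Hoxd8* (375), *Hoxd9* (334) and *Hoxd10* (97.4), and 7 of the 9 were raised. *Hoxa5*, *Hoxa7*, *Hoxa10* and *Hoxc4* read 10.6 to 30.7 in it. Pokemon tumour 1 had *Hoxd8* (110), and beta-catenin tumour 1 had *Hoxd1* (118) and *Hoxd8* (316) with no member over the median. *Hoxc6*, read by several probe sets, passed the median in 15 of all 47 arrays. Among the 15 were tumours 2 and 3 labelled olig1-LMO1 and p53 knockout tumour 2. Outside the 5 tumours with a raised member its highest signal was 125.

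**Figure D2:**
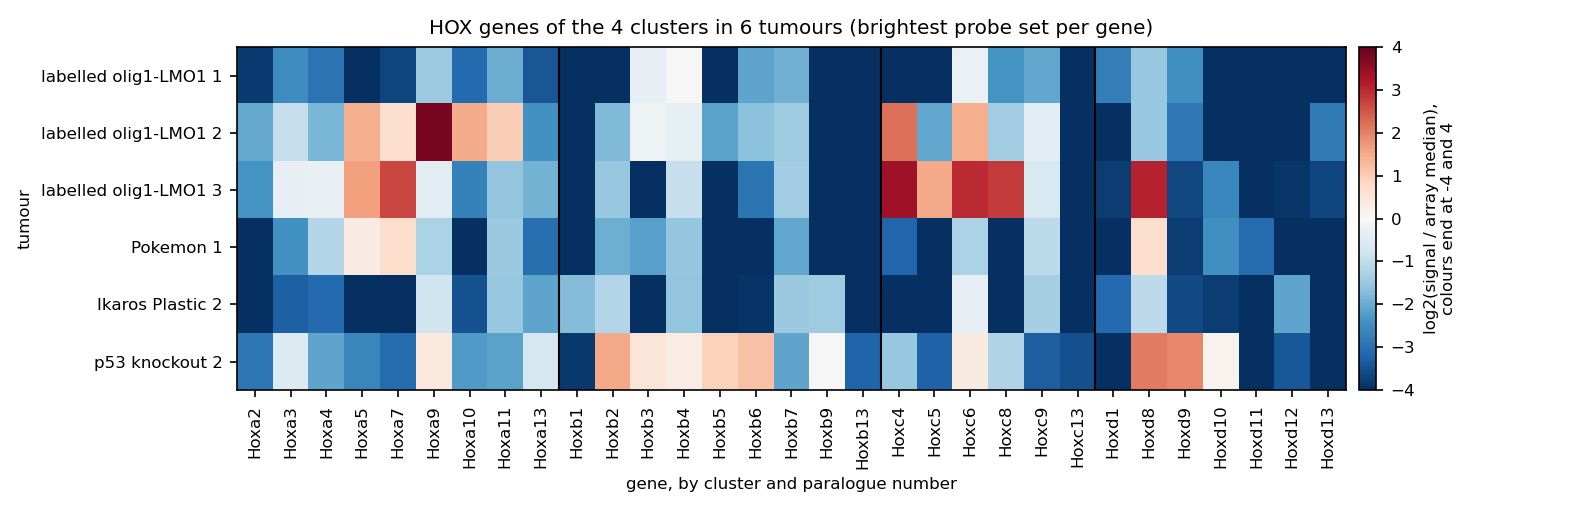
HOX genes on the platform in 6 tumours, ordered by cluster (A to D, divided by lines) and paralogue number, as log2 of the brightest probe set's signal in that array over the array median. Red runs from *Hoxa5* to *Hoxa11* in tumour 2 labelled olig1-LMO1, from *Hoxc4* to *Hoxc8* in tumour 3, and over *Hoxb2* to *Hoxb6* and *Hoxd8* to *Hoxd10* in p53 knockout tumour 2, while tumour 1 labelled olig1-LMO1 has no HOX gene over the median.

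*Pbx3*, a TALE partner of HOXA9 in leukaemia, was the member found most widely, over the array median in 20 of 47 tumours. Over the 47 arrays its lowest, median and highest signals were 11.4, 70.7 and 909. Its signals were 115, 600 and 909 across tumours 1, 2 and 3 with the olig1-LMO1 label, and tumours 2 and 3 were 2.48 and 3.77 times above the highest of the rest. That next highest was 241, in rag E2A knockout tumour 2, which with these 2 makes the 3 tumours at over 4 times the array median.

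By background, mean *Pbx3* was highest in the tumours labelled olig1-LMO1, at 541 ± 400 (SD, n = 3). It was 203 ± 54.2 in rag E2A knockout (n = 2), 152 ± 65.7 in E2A knockout (n = 2), 130 ± 30.8 in Pokemon (n = 2), 108 ± 53.7 in Tal1-LMO2 (n = 3) and 99.7 ± 5.87 in ThPOK tumours (n = 3). Every tumour of 5 backgrounds was over its median: those labelled olig1-LMO1, rag E2A knockout, E2A knockout, Pokemon and ThPOK. The middle of the order held Ikaros Plastic (94.0 ± 27.2, n = 3), Tal1 (76.2 ± 64.0, n = 2), p53 knockout (73.3 ± 39.4, n = 3), LMO1 (71.1 ± 32.0, n = 3) and TLX1 tumours (63.7 ± 54.1, n = 6), each with tumours on both sides of the median. At the low end, all tumours were under it: 53.1 ± 14.2 in those labelled Nup98HoxD13 (n = 3), 38.8 ± 21.4 in *Cdkn2a* knockout (n = 9) and 30.1 ± 11.2 in beta-catenin tumours (n = 3). The range of each background overlapped that of the next in this order.

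*Pbx3* fell in 2 backgrounds against the mean of the other 13. In the 9 *Cdkn2a* knockout tumours the lowest, median and highest were 12.8, 31.7 and 85.0, and the log2 difference was -1.10 ± 0.25 (limma, adjusted p = 0.00120), in a comparison where 14.6% of all genes were lower. In the beta-catenin tumours (17.9, 32.6 and 39.9) it was -1.30 ± 0.41 (limma, adjusted p = 0.0223), where 7.42% of genes were lower. The call in *Cdkn2a* knockout tumours held without any single tumour. The call in beta-catenin tumours was lost without tumour 1, 2 or 3 of that group (-1.35, -1.09 and -1.45, with adjusted p of 0.0787, 0.157 and 0.0647). In tumour RNA, fewer cells with a transcript and less of it per cell cannot be told apart. TLX1 tumours (-0.71 ± 0.30, adjusted p = 0.0686), rag E2A knockout tumours (1.13 ± 0.49, 0.243) and E2A knockout tumours (0.68 ± 0.49, 0.509) did not pass.

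**Figure D3:**
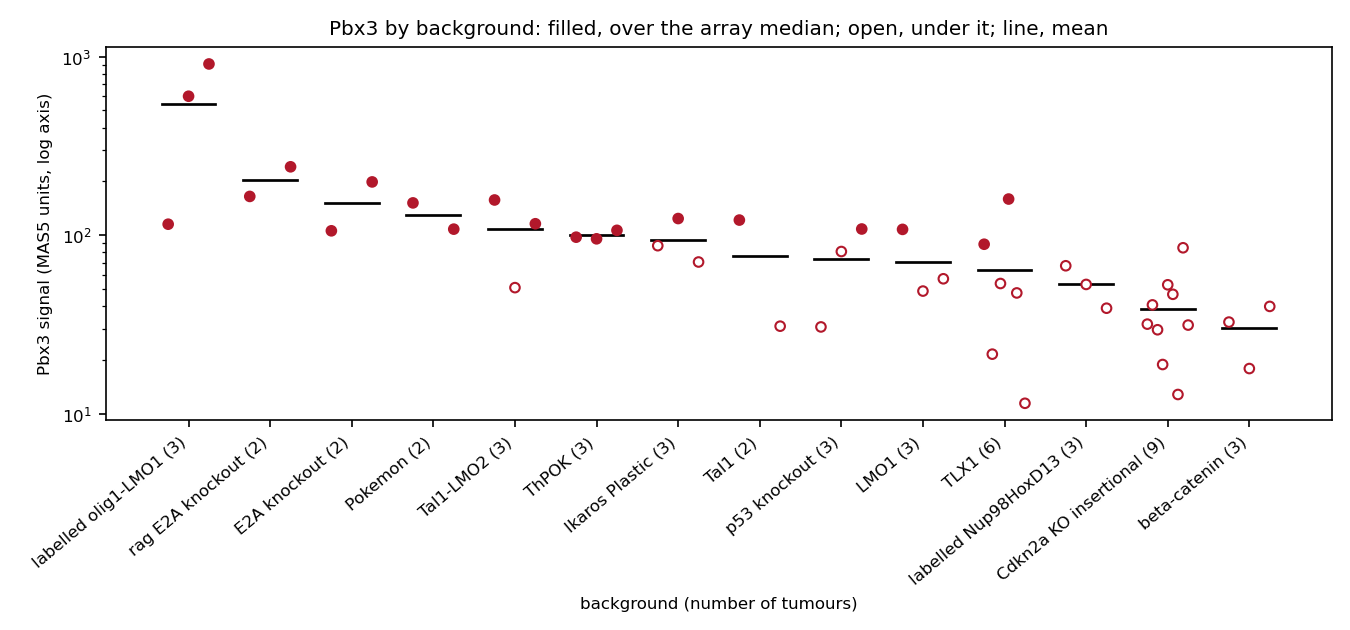
*Pbx3* signal (log axis, MAS5 units) in every tumour, with backgrounds in order of their mean (line); filled points are over the median of their array and open points under it. All 9 *Cdkn2a* knockout and all 3 beta-catenin points are open, and tumours 2 and 3 labelled olig1-LMO1, at 600 and 909, lie above every other tumour.

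*Meis1*, which works with HOXA9 and PBX proteins in leukaemia, was over the median in 1 array, Ikaros Plastic tumour 2, at 218 against a median of 106. Tumours 1 and 3 of that background read 4.84 and 8.02. The next highest of all tumours was 32.7, in *Cdkn2a* knockout tumour 8, and the median over the 47 was 1.33. In the tumours labelled olig1-LMO1 *Meis1* read 0.664 to 1.33, so the tumours with most of the HOX members had it far under the median.

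Other TALE cofactors showed a different spread. *Meis2* was highest in Ikaros Plastic tumour 2 as well, at 336, followed by 92.6 in p53 knockout tumour 2, and these were the 2 arrays in which it passed the median. *Pbx2* was over the median in all 47 arrays by 1 probe set (1418893_at, 173 to 494) and *Pbx4* in none. Of 7 tested cofactors of the list, 3 differed among the 14 backgrounds in the F test, as did 68.1% of all genes: *Pknox1*, *Tgif1* and *Meis3*. In *Cdkn2a* knockout tumours, where *Pbx3* fell, *Pknox1* rose (1.13 ± 0.19, limma, adjusted p = 3.72e-05; 16.1% of all genes were higher) and *Meis3* fell (-1.06 ± 0.14, 8.21e-07). *Tgif1* fell in TLX1 tumours (-1.96 ± 0.22, 6.20e-08), where 12.5% of all genes were lower and, as given below, 3 arrays had high 3′ to 5′ ratios. None of the 7 was called in the tumours labelled olig1-LMO1, where the median of the list was -0.15.

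Against the other 13 backgrounds, the tumours labelled olig1-LMO1 had 4 of the 5 tested members higher, in a comparison where 0.204% of all 8810 tested genes were higher and 0.454% lower. *Hoxc4* rose by 2.91 ± 0.45 on the log2 scale (limma, adjusted p = 0.000275), *Hoxa7* by 2.25 ± 0.41 (0.00242), *Pbx3* by 2.17 ± 0.41 (0.00363) and *Hoxa5* by 1.72 ± 0.40 (0.0256). *Hoxa9* was 0.81 ± 0.30 (0.227) and was not called. *Hoxc4* passed the filter only through tumours 2 and 3 of this label, and *Hoxa5* and *Hoxa7* through these and Pokemon tumour 1. The count of these 3 genes is therefore a description of these arrays and supports nothing further. Each ± here is a standard error from 1 spread shared by all 14 backgrounds, not the spread of these 3 tumours. The group was not uniform: tumour 1 lay with the rest of the series for each HOX member and read 115 for *Pbx3*. The log2 values of tumours 1, 2 and 3 were 4.16, 8.37 and 9.50 for *Hoxc4* and 7.03, 9.27 and 9.85 for *Pbx3*.

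The calls rested on tumours 2 and 3 together. Without tumour 1 the 4 differences were 2.92 for *Hoxa5*, 3.42 for *Hoxa7*, 4.50 for *Hoxc4* and 3.01 for *Pbx3*, and 8 calls were made in all. Without tumour 2, *Hoxa5* (1.16, adjusted p = 0.458), *Hoxa7* (2.12, 0.0663) and *Pbx3* (1.90, 0.132) lost their calls, and *Hoxc4* no longer passed the filter. Without tumour 3, *Hoxa5* (1.09, 0.458), *Hoxa7* (1.20, 0.240) and *Pbx3* (1.60, 0.183) did, and 2 calls were made in all. Without both, *Pbx3* was 0.49 (0.962) and *Hoxa9* was -0.21 (0.967). The call for *Hoxa5* was also lost with a pseudocount of 1 (2.09, 0.212) and with the replicate block (1.70, 0.0566).

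**Figure D4:**
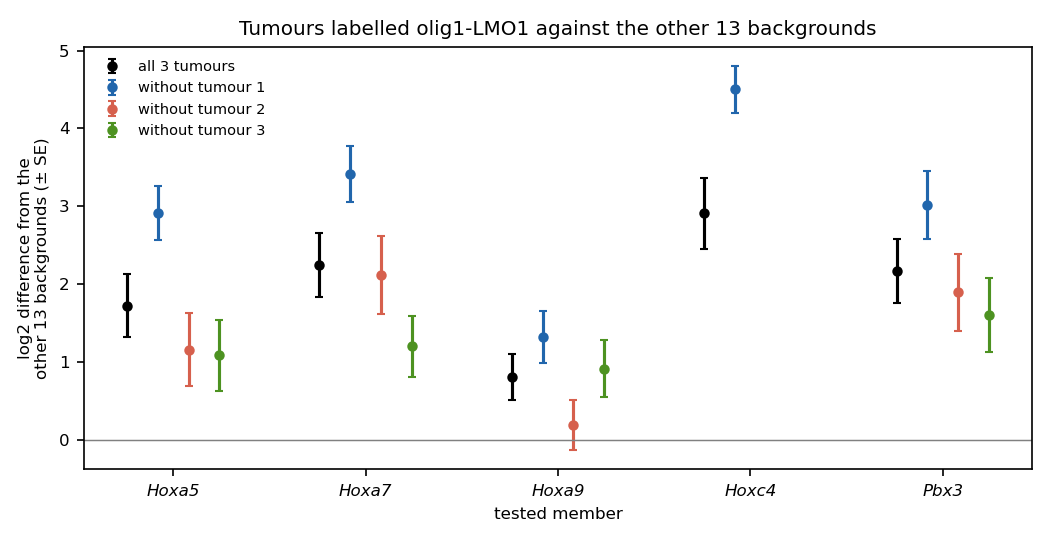
Log2 difference (± SE) of each tested member between the tumours labelled olig1-LMO1 and the mean of the other 13 backgrounds, with all 3 tumours and with each left out. The SE is from 1 spread shared by all backgrounds and is not the spread of these 3 tumours. Leaving out tumour 1 raises every difference (blue, 2.92 for *Hoxa5* to 4.50 for *Hoxc4* among the called genes), and leaving out tumour 2 or 3 lowers those of *Hoxa5*, *Hoxa7* and *Pbx3*; *Hoxc4* has no point in those fits because it no longer passed the filter.

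Over all backgrounds, 6 of 70 member-by-background pairs were called, against 11.5% of such pairs over all tested genes. Apart from the 6 described, no pair passed. *Hoxa9* came nearest, with 0.46 ± 0.19 in *Cdkn2a* knockout (limma, adjusted p = 0.0564) and 0.83 ± 0.30 in ThPOK tumours (0.0613). Those values are from 1421579_at, which was over the median in 1 of 9 *Cdkn2a* knockout and 1 of 3 ThPOK tumours. By 1455626_at no tumour of either background was over it, and the means were 5.54 and 20.7. The F test for any difference among the 14 backgrounds called all 5 tested members, as it did 68.1% of all genes. Its adjusted p-values ran from 0.000167 for *Pbx3* to 0.0463 for *Hoxa5*, with *Hoxa9* at 0.00297, *Hoxc4* at 0.00403 and *Hoxa7* at 0.00738. *Hoxa5*, *Hoxa7* and *Hoxc4* entered this test only through the tumours in which they were high, so their F test values are a description. Without tumours 2 and 3 labelled olig1-LMO1, 2 members stayed in the test and 2 were called.

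TLX1 is itself a homeodomain factor of T-cell leukaemia, and none of the 5 tested members passed the test between the 6 TLX1 positive and the 41 negative tumours, where 21.4% of all genes did. No member reached an unadjusted p of 0.05 in that fit, and none was called with background as a random block. The positive minus negative differences were -0.51 ± 0.43 for *Pbx3* (limma, adjusted p = 0.422), -0.44 ± 0.28 for *Hoxa9* (0.268) and 0.20 ± 0.37 for *Hoxa7* (0.737). *Hoxa5* (-0.04 ± 0.34) and *Hoxc4* (-0.05 ± 0.43) were near 0, and the signs of both turned in other settings. The sign of *Pbx3* turned too, to 0.20 without TLX1 tumours 2, 5 and 6. These 3 had the highest ratios of 3′ to 5′ *Gapdh* signal of the 47 arrays (log2 2.86, 2.37 and 1.87, the next being 0.71), a ratio that rises as RNA is degraded, and its part in the TLX1 comparisons was not tested beyond leaving them out. A difference that misses the threshold does not show equal levels. *Pbx3* ran from 11.4 to 159 within the TLX1 tumours, with 2 of 6 over the median, and no HOX member was over it in any of them. *Hoxa5*, *Hoxa7*, *Hoxa9* and *Hoxc4* thus entered this test only through TLX1 negative tumours. Most of their negative values were also counted as absent, so their missing calls carry little information on level.

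Genes that regulate HOX clusters were counted from lists drawn up from their known roles. Of 13 tested activators of HOXA transcription, 9 differed in the F test, against 68.1% of all genes. *Mllt6*, which encodes a partner of the MLL and DOT1L machinery, was called in the tumours labelled olig1-LMO1, where it fell (-1.04 ± 0.23, limma, adjusted p = 0.0163); it rose in *Cdkn2a* knockout (0.82 ± 0.14, 4.74e-05) and beta-catenin tumours (1.17 ± 0.23, 0.000402; 11.4% of all genes were higher). Of 16 tested Polycomb genes, which encode the repressors that keep HOX clusters silent, 9 differed in the F test, against the same 68.1%, and none was called in the tumours labelled olig1-LMO1. *Rbbp4* rose in Tal1 tumours (0.92 ± 0.18, 0.00113; 3.10% of all genes) and fell in Ikaros Plastic tumours (-0.75 ± 0.15, 0.000671; 7.85%). In the tumours labelled olig1-LMO1 the median log2 difference was 0.05 for the activators and 0.07 for the Polycomb genes, against -0.02 for all genes.

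Of 17 tested genes known as targets of HOXA9 and MEIS1, 14 differed among the backgrounds, against 68.1% of all genes, and none was called in the tumours labelled olig1-LMO1 (median 0.06). *Igf1*, a growth factor, rose in *Cdkn2a* knockout (1.29 ± 0.15, limma, adjusted p = 1.01e-07) and fell in Tal1-LMO2 tumours (-1.54 ± 0.25, 8.89e-05; 5.23% of all genes were lower). *Lyl1*, an early progenitor factor, rose in TLX1 tumours (2.12 ± 0.30, 2.86e-06; 19.0% of all genes were higher). Between TLX1 positive and negative tumours 6 of 14 myeloid markers were also higher (median log2 difference of the list 1.37), as were 1108 of all 8810 genes. The summed signal of these markers was 73702 in TLX1 tumour 2 and 3237 to 11221 in the other TLX1 tumours. The part of these markers and of the 3′ to 5′ ratios in the *Lyl1* value was not tested. Of the other HOX genes 3 were tested, and *Hoxc6* was higher in the tumours labelled olig1-LMO1 (1.51 ± 0.32, adjusted p = 0.0120), at 41.5, 179 and 536 by the tested probe set. *Hoxb4* was called lower in Tal1-LMO2 tumours (-1.03 ± 0.30, limma, adjusted p = 0.0298). It was over the array median in 3 of 47 arrays, with no Tal1-LMO2 tumour among them. Signals on both sides were thus mostly counted as absent, and the difference carries little information on level.

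Likeness to each tested member was taken as Pearson's r of log2 values over the 47 arrays, which share the platform and its scaling, and is given as a description. For *Hoxa5* the 3 closest genes were *Hoxa7* (r = 0.83), *Hoxc4* (0.72) and *Mab21l2* (0.63). Over the 45 tumours without tumours 2 and 3 labelled olig1-LMO1 these were 0.57, -0.06 and 0.22. *Hoxc4* and *Hoxa7* went from 0.83 to 0.13, and *Hoxa7* and *Pbx3* from 0.62 to 0.19, so most of the likeness among members came from those tumours.

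For *Pbx3* the closest genes were *Arf1* (r = 0.63, 0.64 over the 45), *Mapkap1* (0.63, 0.78) and *Mapk9* (0.62, 0.62). *Mapkap1*, which encodes a subunit of the mTORC2 kinase complex, is the protein-coding gene next to *Pbx3* in the RefSeq order of GRCm38.p6. It was over the median in all 47 arrays, and both of its probe sets followed *Pbx3* over the 45 tumours (r = 0.78 and 0.70). On the other side, the probe sets of *Mvb12b* had r of 0.25 to 0.47 over the 45. In tumours 2 and 3 labelled olig1-LMO1, where *Pbx3* was highest, *Mapkap1* read 412 and 306 by the first probe set (1427212_at), inside the range of 132 to 923 over all tumours; its highest was rag E2A knockout tumour 2. For *Hoxa9*, by 1421579_at, the closest were *Plxna3* (0.66), *Gpm6b* (0.65) and *Far1* (0.63), at 0.72, 0.66 and 0.63 over the 45. That probe set was over the median in 3 of 47 arrays, so these r rest mostly on signals counted as absent. The other *Hoxa9* probe set had r = 0.08 with it over the 45.

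Markers of other cell types were summed beside these values. In tumours 2 and 3 labelled olig1-LMO1 the T cell sum was 17092 and 20167, with 10 and 9 of 10 markers over the median, inside the 8785 to 36162 of the 42 tumours with no raised member. Their early thymic progenitor sums (730 and 621, 3 of 15 markers over the median in each) and endothelial sums (1033 and 1006) were also inside the 42, whose ranges were 174 to 3638 and 307 to 2245. The 3638 was TLX1 tumour 2 alone, and the next of the 42 was at 1421. Tumour 3 had a myeloid sum of 7893 with 13 of 14 markers over the median, the rank of 42 from the lowest of the 47, and the 42 ran from 1111 to 73702. That upper end was TLX1 tumour 2 alone, and the next was 11221, in TLX1 tumour 5. Pokemon tumour 1 had a T cell sum of 19369 with 10 of 10 markers, and its 6 other sums lay inside the ranges too.

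The remaining pair stood apart. Ikaros Plastic tumour 2, the *Meis1* tumour, had a sum of 14567 for stroma and thymic epithelium with 13 of 15 markers over the median, above the 385 to 10692 of the 42, and a T cell sum of 10078 with 10 of 10. In p53 knockout tumour 2, with the HOXB and HOXD genes, the T cell sum was 1697 with 2 of 10 markers. Its endothelial sum was 20427 with 11 of 12 markers, its stromal sum 22050 with 9 of 15, and its early progenitor sum 5743 with 9 of 15, each above the 42. Its megakaryocyte and erythroid sum of 1996, with 4 of 10 markers, was above their highest of 1118 as well. The part of these markers in the *Meis1*, *Hoxa9* and other HOX signals was not tested.

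**Figure D5:**
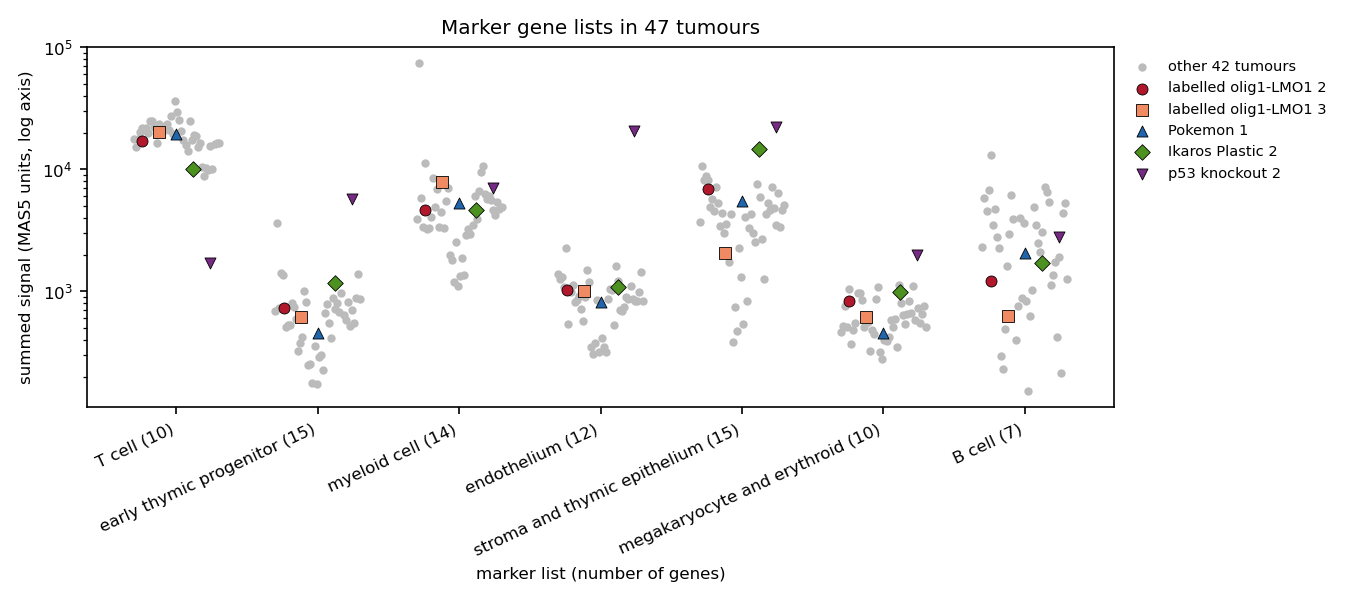
Summed signal (log axis, MAS5 units) of each marker list in every tumour; grey points are the 42 tumours with no raised member and coloured symbols the 5 with one. Tumours 2 and 3 labelled olig1-LMO1 and Pokemon tumour 1 lie inside the grey points on every list, Ikaros Plastic tumour 2 lies above them for stroma and thymic epithelium, and p53 knockout tumour 2 lies below them for T cells and above them for endothelium.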

How the data were processed

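Total RNA of 47 tumours was extracted with Trizol and labelled with biotin for Affymetrix arrays (labels' protocols). Deposited by the authors was 1 intensity on a linear scale per probe set and array, the MAS5 signal named in the submitters' processing notes. Its version is not given in the sources used here, nor is the scaling target. Trimmed means with 2% cut from each end were 250.063 to 250.129, so the arrays had been scaled. The 7 members and all gene lists were chosen with earlier results of these data known. Every member is named, up to 3 genes of lowest F test p per related list, the 3 of highest r per tested member, and targeted genes that bear on a label. Symbols are those of the platform table, and 691 probe sets with several symbols and 1555 with none were left out. Values were log2(signal + 15.9), the 25th percentile of all signals. A gene was tested where a probe set passed the array median in at least 2 arrays, by the probe set of highest mean log2 value (8810 genes). Fits used limma 3.58.1 in R 4.3.3 (lmFit, eBayes with trend), with 1 mean per background, p-values adjusted by Benjamini-Hochberg over the 8810 genes, and calls at an adjusted p under 0.05. In these fits ± is the standard error of a difference, from 1 spread per gene shared by all groups. Where the dimmer group is under the array medians, the size of a difference depends on the pseudocount. The scripts were tested on simulated data. The p53 gene is not analysed here. Numbers in the titles were checked for pairing: deviations of 230 same-numbered pairs from their group means had a median r of -0.003, with 27 over 0.1. For 772 pairs of different number the median r was 0.004, with 101 over 0.1. The check showed no pairing by number, but a median over all pairs cannot exclude it for some tumours.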

Additional observations from a re-analysis of the deposited data

Results flagged for a closer look

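In the 9 *Cdkn2a* knockout tumours, *Meis1* read 32.7 in tumour 8 and 1.21 at the median, a gap to the other tumours that is large for a group of this size. The signal was 0.339 of that array's median, so by the rule used here *Meis1* was absent there too. The same check was run on 16 sets of values, each a member probe set within a background of more than 3 tumours, and chance marks about 1 in 20 groups.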

How the results depend on the processing

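Of the 34 member-by-tumour pairs over the array median, 18 were over 2 times and 7 over 4 times the median. They were 28 to 34 with 1 tumour left out in turn, the lowest without tumour 2 labelled olig1-LMO1. Of the 6 calls of a member in a background, 3 were made with a filter of 6 arrays, where 1 member was tested, and 2 to 8 with 1 tumour left out. Of the 5 calls in the F test, 1 was made with that filter, 2 without the tumours labelled olig1-LMO1 and Nup98HoxD13, 2 without tumours 2 and 3 labelled olig1-LMO1 (an alternative added after seeing the data, as was leaving tumours out of the count of pairs), and 2 to 5 with 1 tumour left out. For TLX1 the count was 0 in every setting run, and 0 to 0 with 1 tumour left out. With the title number as a replicate block the counts were 5, 4 and 0. Signs turned in some settings: the TLX1 difference of *Hoxa5* was 0.17 and of *Hoxc4* 0.15 with a pseudocount of 1, that of *Hoxc4* was 0.13 with the replicate block, and that of *Pbx3* was 0.20 without TLX1 tumours 2, 5 and 6. With 1 tumour left out, the TLX1 difference ran from -0.20 to 0.041 for *Hoxa5* and from -0.19 to 0.021 for *Hoxc4*. *Hoxa9* in the tumours labelled olig1-LMO1 was -0.21 without tumours 2 and 3. The cause was not tested. Signals under the array median, which include most of the HOX values, carry little information on level.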
